A study of Mus musculus with 16 samples.

Results

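Matrix metalloproteinases (MMPs), ADAMTS and ADAMTS-like proteins and tissue inhibitors of metalloproteinases (TIMPs) were followed over culture time, Twist1 genotype and thyroxine in cells of the mouse coronal suture. Members were all genes whose symbol is Mmp, Adamts or Adamtsl with a number, or Timp with a number, that had a probe set with a single gene symbol. This gave 49 of the 22180 genes with such a probe set, made up of 22 MMP, 18 ADAMTS, 5 ADAMTS-like and 4 TIMP genes. Adamts2 and Mmp15 were not analysed here.

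RNA was measured on 16 Affymetrix whole-transcript arrays. The cells came from the coronal suture, where the frontal and parietal bones of the skull meet, of C57BL6 mice of 2 litters that were either Twist1+/- or wild type (WT), and they were kept apart by sex and genotype. The 8 groups were Twist1+/- cells with thyroxine at 7 days, Twist1+/- cells in control medium at 7 days, and the same 2 media for Twist1+/- cells at 3 days, and then these 4 conditions for WT cells. Thyroxine, the prohormone that the thyroid secretes, was given in DMEM (log10 of its concentration in mol per liter: -6), and control cells had DMEM alone. Each group held 2 arrays, 1 of female and 1 of male cells, so that every genotype rested on 2 cultures whose cells came from several littermates. Twist1 encodes a transcription factor of mesenchymal cells, and mice with 1 intact copy serve as a model of coronal suture fusion.

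MMPs are zinc-dependent proteases that cut collagens, proteoglycans and other matrix proteins, and most are secreted as inactive precursors. ADAMTS proteases are related secreted enzymes that bind the matrix and cut proteoglycans or process collagen precursors, whereas ADAMTS-like proteins lack the protease part. TIMPs bind the active site of MMPs and block it. In bone and skull these enzymes take part in matrix turnover by fibroblasts, osteoblasts, osteoclasts and macrophages.

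Values are log2 intensities after robust multi-array averaging (RMA), and differences are on the same scale. Of the 49 members, 35 reached a mean of 3.905, the level below which genes were not tested. Just above it lay Adamts15 at 3.93, Mmp27 at 3.98 and Mmp25 at 3.99, and just below it Mmp8 at 3.89 and Adamts8 at 3.86. The other members below it were Mmp1a, Mmp1b, Mmp7, Mmp10, Mmp20, Mmp21, Adamts3, Adamts16, Adamts18, Adamts19, Adamts20 and Timp4. The members tested were 15 MMP, 12 ADAMTS, 5 ADAMTS-like and 3 TIMP genes. The number of arrays limits the precision, and with 1 culture for each genotype and sex the p-values measure the spread between these samples, which may be technical.

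The arrays carried markers of more than 1 cell type. All 10 markers of suture mesenchyme and fibroblasts and all 14 macrophage markers passed the filter, whereas only Alpl of the 6 osteoblast markers measured did so and 0 of 5 neutrophil markers did (mean log2 of the neutrophil markers 2.52 to 3.1 over the arrays). The mean of the macrophage markers was 9.93 to 10.38 at 7 days and 8.09 to 9.98 at 3 days. The WT male culture stood apart, with mesenchyme markers at 8.19 to 8.51 on its 4 arrays against 9.37 to 9.82 on the other 12 arrays, and at 3 days with macrophage markers at 9.96 to 9.98 against 8.09 to 8.98. Counts of members called for day, over all arrays and in Twist1+/- cells, are given with and without that culture. So are the named genotype differences over both days. In such bulk samples fewer cells of a type and less RNA per cell cannot be told apart. Twist1 itself had 6.51, 7.15 and 7.55 (lowest, median and highest) in Twist1+/- arrays and 6.07, 6.76 and 7.7 in WT arrays (difference 0.32 ± 0.27 SE, adjusted p = 0.937 by limma with Benjamini-Hochberg adjustment), so its RNA level did not separate the genotypes.

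The 3 members that were higher at 7 days than at 3 days, Mmp13, Mmp12 and Mmp3, lie in 1 cluster of MMP genes on mouse chromosome 9. In the RefSeq annotation of GRCm38.p6 the order of the 10 measured members there is Mmp13, Mmp12, Mmp1b, Mmp3, Mmp1a, Mmp10, Mmp8, Mmp27, Mmp20 and Mmp7. RefSeq windows from 250 bases before to 50 bases after an annotated gene start were searched for TGANTCA. This is a wide pattern for the site of the transcription factor AP-1, with any middle base, and has the same form on both strands. The letters were present in the window of 8 of the 10 cluster genes and of 0 of the other 24 members with a window, against 8.97% of the 27025 genes with a window. For 15 members no window was at hand. A match of letters is a description and shows no binding. Windows are shown for the 3 members that were higher at 7 days, and for Mmp10 as a neighbour with the same letters that stayed below the filter. Mmp1a, Mmp1b, Mmp7 and Mmp20 also held a match and stayed below the filter. The match in Mmp20 was TGAATCA, and those of the other cluster genes were TGAGTCA or TGACTCA. Capitals mark the motif. All 4 lie on the plus strand of GRCm38.p6, at chr9:7272264-7272563 (Mmp13), chr9:7347124-7347423 (Mmp12), chr9:7445572-7445871 (Mmp3) and chr9:7502092-7502391 (Mmp10).
Mmp13: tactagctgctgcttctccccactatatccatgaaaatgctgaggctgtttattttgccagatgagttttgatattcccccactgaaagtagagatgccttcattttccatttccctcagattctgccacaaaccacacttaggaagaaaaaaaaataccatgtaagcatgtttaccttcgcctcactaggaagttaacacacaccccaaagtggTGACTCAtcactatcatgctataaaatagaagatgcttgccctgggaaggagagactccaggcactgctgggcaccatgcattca
Mmp12: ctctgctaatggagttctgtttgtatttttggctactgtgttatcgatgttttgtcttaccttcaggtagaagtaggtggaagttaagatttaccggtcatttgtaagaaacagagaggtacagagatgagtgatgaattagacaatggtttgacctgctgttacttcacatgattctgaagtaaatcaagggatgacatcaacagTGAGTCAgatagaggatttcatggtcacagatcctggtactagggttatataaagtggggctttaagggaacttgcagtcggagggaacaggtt
Mmp3: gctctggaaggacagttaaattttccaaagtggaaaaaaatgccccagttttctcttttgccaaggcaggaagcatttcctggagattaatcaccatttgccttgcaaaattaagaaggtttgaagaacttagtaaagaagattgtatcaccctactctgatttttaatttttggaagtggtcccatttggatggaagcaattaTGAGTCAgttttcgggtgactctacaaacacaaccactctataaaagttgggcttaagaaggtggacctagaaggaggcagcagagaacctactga
Mmp10: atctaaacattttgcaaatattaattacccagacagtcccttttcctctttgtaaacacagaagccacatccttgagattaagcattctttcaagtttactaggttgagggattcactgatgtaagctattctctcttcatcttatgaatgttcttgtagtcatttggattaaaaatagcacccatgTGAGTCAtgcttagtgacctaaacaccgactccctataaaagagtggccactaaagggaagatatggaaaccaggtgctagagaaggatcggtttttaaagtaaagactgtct
The first base of the motif lay 35 bases before the annotated start in Mmp13, 44 in Mmp12, 46 in Mmp3 and 63 in Mmp10. Mmp12 has a further annotated start whose window holds no such letters.

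Members were called for culture time and, with all cultures in the fit, for neither genotype nor thyroxine. Of the 35 tested members 9 passed the test of 7 against 3 days (25.7%), against 18.5% of all 13453 genes tested. Mmp13, Mmp12 and Mmp3 were higher at 7 days, where 9.84% of all genes were, and Adamts12, Adamts14, Adamtsl1, Adamtsl3, Timp1 and Timp2 were lower, where 8.69% were. The median difference was -0.07 over the tested members and -0.019 over all genes. None of the 9 had 7-day arrays that all lay beyond the 3-day arrays when all 16 arrays were taken. Without the WT male culture 12 members were called, against 26.1% of all genes, and Adamtsl4, Mmp19 and Mmp9 were the added ones.

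**Figure D1:**
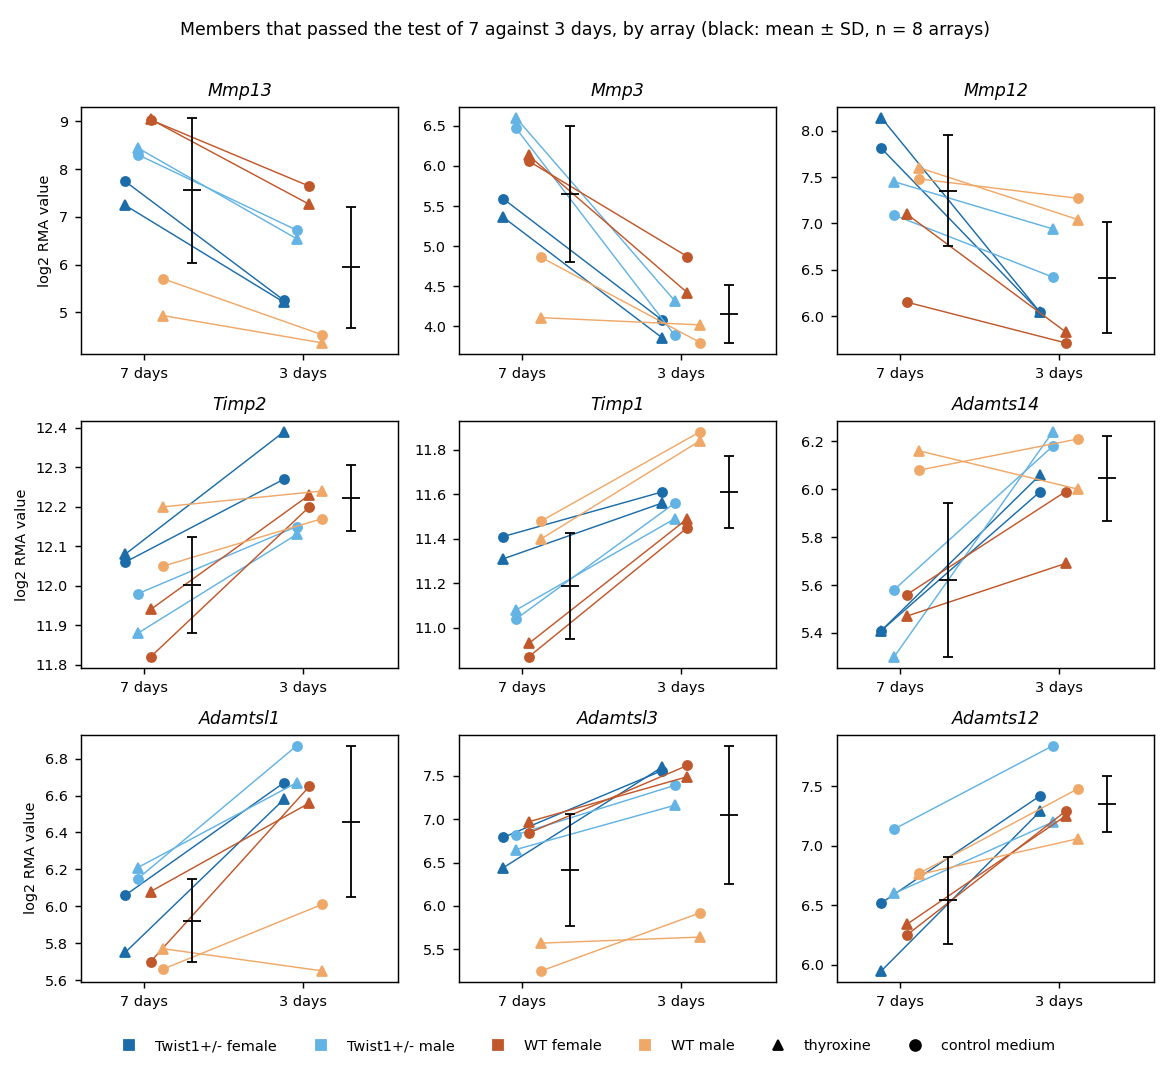
Log2 RMA values of the 9 members that passed the test of 7 against 3 days, with 7 days left of 3 days. Each line joins the arrays of a culture in the same medium (colour: culture, triangles: thyroxine, circles: control medium), and black bars are mean ± SD over 8 arrays; the WT male lines of Mmp13 and Adamtsl3 run below the others.

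Collagenases cut fibrillar collagen. Mmp13, the main collagenase of mouse bone and cartilage, had 4.93, 8.02 and 9.04 at 7 days (lowest, median and highest of 8 arrays) and 4.36, 5.89 and 7.64 at 3 days. It was higher at 7 days in 8 of 8 comparisons of the same culture and medium, but the cultures lay so far apart that the days overlapped. The WT male arrays were lowest at both times, at 4.93 and 5.70 at 7 days and 4.36 and 4.53 at 3 days, and the WT female arrays highest, at 9.04 and 9.03 against 7.26 and 7.64 (thyroxine and control medium). The mean was 7.55 ± 1.52 at 7 days and 5.94 ± 1.26 at 3 days (SD, n = 8 arrays each), a difference of 1.61 ± 0.47 SE or 3.06-fold (limma with culture as a random block, Benjamini-Hochberg adjusted p = 0.0327). Within cultures the difference was 2.26 in Twist1+/- female, 1.74 in Twist1+/- male, 1.59 in WT female and 0.87 in WT male cells. Its call was lost on leaving out any of 11 of the 16 arrays, that is all but both Twist1+/- male arrays at 3 days, the Twist1+/- female thyroxine array at 7 days and both WT male arrays at 7 days. Without the WT male culture the difference was 1.79 ± 0.11 SE (adjusted p = 4.55e-07 by limma). With all arrays and culture as a fixed block it was 1.61 ± 0.13 SE (adjusted p = 3.22e-05 by limma). The other collagenases Mmp1a, Mmp1b and Mmp8 were not tested.

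Stromelysins cut proteoglycans and activate other MMP precursors. Mmp3, a secreted stromelysin of fibroblasts, had 4.11, 5.82 and 6.60 at 7 days and 3.80, 4.05 and 4.87 at 3 days. It was higher at 7 days in 8 of 8 matched comparisons, and outside the WT male culture the lowest 7-day array (5.36) lay above the highest 3-day array (4.87). The difference was 1.49 ± 0.25 SE or 2.81-fold (adjusted p = 0.00156 by limma), with 2.43 in Twist1+/- male cells and 0.58 in WT male cells at the ends of the range. Mmp11, a stromelysin known from matrix remodelling in stroma, differed by 0.11 ± 0.16 SE (adjusted p = 0.696 by limma), and its dimmer second probe set gave -0.29. Mmp10, close to Mmp3 in sequence and position, had 3.33 to 4.5 at 7 days and 3.52 to 3.89 at 3 days and was not tested.

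Mmp12 encodes macrophage elastase. It had 6.15, 7.46 and 8.14 at 7 days and 5.71, 6.23 and 7.27 at 3 days, and was higher at 7 days in 8 of 8 matched comparisons. The difference was 0.94 ± 0.21 SE or 1.92-fold (adjusted p = 0.00815 by limma), with the widest step in Twist1+/- female cells (1.93) and the narrowest in WT male cells (0.39). Macrophage markers moved the same way, since 14 of 14 were higher at 7 days by 0.89 to 1.54. In the WT male culture their mean was already 9.96 to 9.98 at 3 days and was 10.06 to 10.38 at 7 days. The part of the macrophage markers in the Mmp12 result was not tested. Of the 4 tested osteoclast markers Tnfrsf11a, the RANK receptor, was higher at 7 days (0.70 ± 0.16 SE, adjusted p = 0.00921 by limma), and Acp5, Ctsk and Ocstamp were not called.

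**Figure D2:**
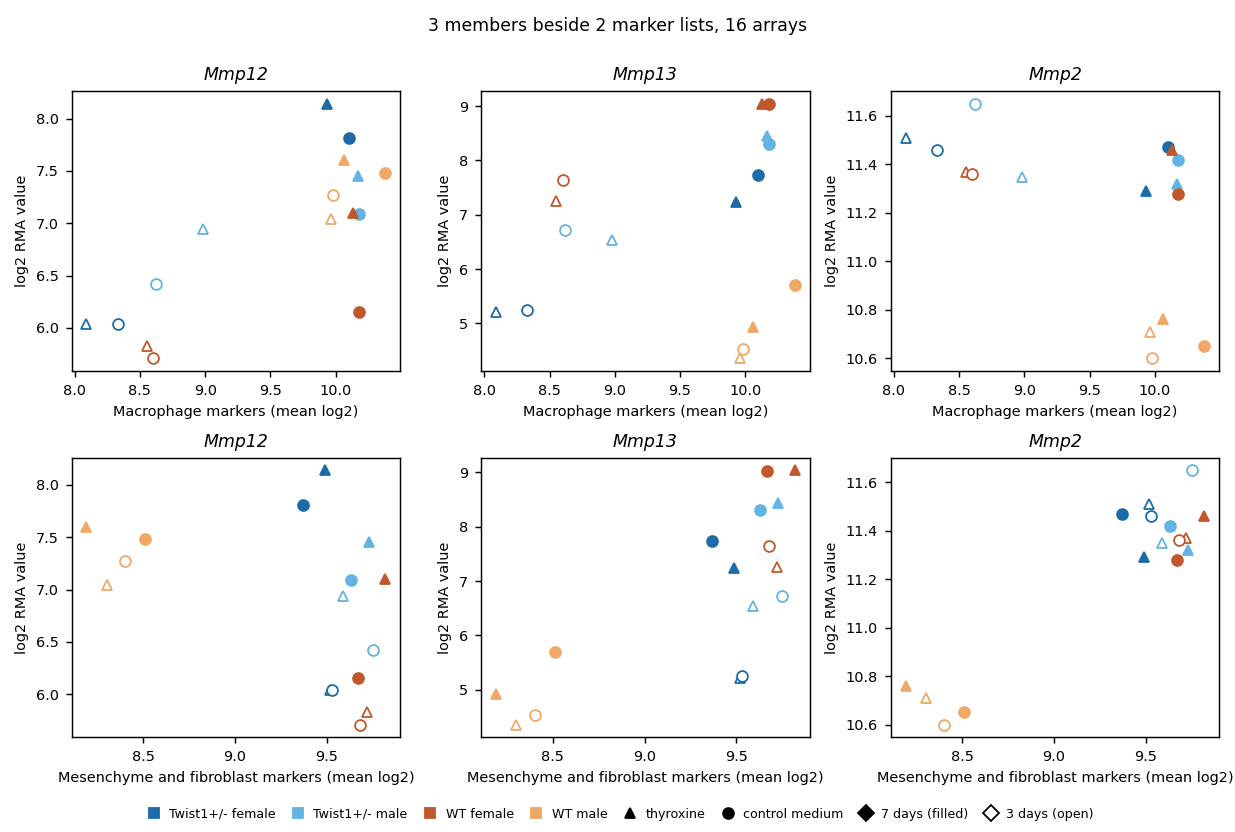
Log2 RMA values of Mmp12, Mmp13 and Mmp2 on 16 arrays beside the mean of 14 macrophage markers (top) and of 10 mesenchyme and fibroblast markers (bottom). Filled symbols are 7 days, open symbols 3 days; the 4 WT male arrays sit at 8.19 to 8.51 on the mesenchyme axis and hold the lowest Mmp2 values.

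**Figure D3:**
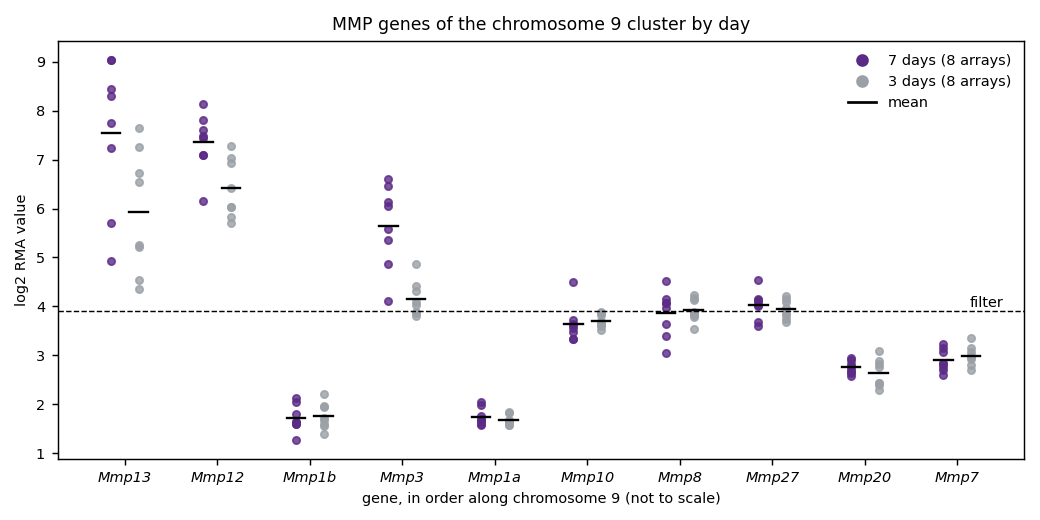
Log2 RMA values of the 10 MMP genes of the chromosome 9 cluster, in gene order and not to scale, with 7 days left of 3 days (8 arrays each, bars: mean, dashed line: the filter at 3.905). The 7-day means of Mmp13, Mmp12 and Mmp3 lie above the 3-day means with overlapping arrays, Mmp27 lies near the filter, and 6 genes have means below it.

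Along the cluster, 4 of the 10 genes passed the filter. In the plot of the chromosome 9 genes the 7-day means of Mmp13, Mmp12 and Mmp3 lie above their 3-day means while the arrays of the 2 days overlap. Mmp27 averaged 4.03 ± 0.29 at 7 days and 3.94 ± 0.20 at 3 days (SD, n = 8 arrays each). Mmp1a and Mmp1b, both rodent counterparts of an interstitial collagenase, stayed between 1.28 and 2.22 on all arrays.

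Gelatinases cut denatured collagen. Mmp2, the gelatinase of fibroblasts, had 10.65, 11.30 and 11.47 at 7 days and 10.60, 11.36 and 11.65 at 3 days, with a difference of -0.05 ± 0.09 SE (adjusted p = 0.778 by limma). Mmp9, the gelatinase of osteoclasts and myeloid cells, had 4.18, 4.72 and 5.37 at 7 days and 4.57, 5.06 and 5.67 at 3 days. Its values were lower at 7 days in 7 of 8 matched comparisons, and the difference of -0.39 ± 0.15 SE was not called (adjusted p = 0.0865 by limma). With culture as a fixed block Mmp9 was called (-0.39 ± 0.08 SE, adjusted p = 0.00278 by limma).

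Membrane-type MMPs sit on the cell surface. Of the 5 tested 0 passed. Mmp14, which activates the Mmp2 precursor at the cell surface, had 10.01, 10.81 and 11.04 at 7 days and 9.85, 10.96 and 11.07 at 3 days (difference -0.01 ± 0.15 SE). Mmp16 differed by -0.19 ± 0.06 SE (adjusted p = 0.0655 by limma), and Mmp17, Mmp24 and Mmp25 by -0.17, -0.03 and -0.23. Of these only Mmp16 was called with culture as a fixed block (adjusted p = 0.0348 by limma). Among the remaining MMPs Mmp19 was higher at 7 days in 8 of 8 matched comparisons, and its difference of 0.32 ± 0.11 SE was not called (adjusted p = 0.0585 by limma). It was called without the WT male culture (0.32 ± 0.07 SE, adjusted p = 0.0031 by limma). Mmp23 and Mmp28 differed by -0.07 and 0.01.

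Adamts12, a protease that cuts the cartilage oligomeric matrix protein COMP, had the smallest p of the members. It had 5.95, 6.56 and 7.14 at 7 days and 7.06, 7.29 and 7.84 at 3 days. The values were lower at 7 days in 8 of 8 matched comparisons, and the days overlapped only between the Twist1+/- male control array at 7 days (7.14) and the WT male thyroxine array at 3 days (7.06). The difference was -0.81 ± 0.10 SE, which is 1.76-fold (adjusted p = 0.000368 by limma), and within cultures it ran from -1.12 in Twist1+/- female to -0.50 in WT male cells. Adamts7, the other protease known to cut COMP, differed by -0.09 ± 0.12 SE. Comp itself differed by -0.17 ± 0.14 SE (adjusted p = 0.458 by limma).

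Adamts14, which removes the amino-terminal propeptide of procollagen, had 5.30, 5.52 and 6.16 at 7 days and 5.69, 6.03 and 6.24 at 3 days. Both WT male arrays at 7 days (6.16 and 6.08) lay among the 3-day arrays, and the other 6 arrays at 7 days (5.30 to 5.58) lay below all 3-day arrays. The difference was -0.42 ± 0.08 SE (1.34-fold, adjusted p = 0.00327 by limma), and its dimmer second probe set gave -0.13. Adamts3, a protease of the same kind, was not tested.

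Of the 5 tested proteases that cut aggrecan and versican, the large proteoglycans of cartilage and loose matrix, 0 passed. Adamts1 had 7.25, 8.2 and 8.41 at 7 days and 7.34, 8.02 and 8.17 at 3 days (difference 0.11 ± 0.10 SE). Adamts4 differed by -0.08 ± 0.15 SE and Adamts5, the main aggrecanase of mouse cartilage, by 0.05 ± 0.11 SE. Adamts9 and Adamts15 differed by -0.08 and -0.01. Adamts13, the von Willebrand factor protease, differed by -0.03, and Adamts6, Adamts10 and Adamts17 by -0.21, 0.29 and 0.02, with 0 of the 4 called.

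The ADAMTS-like genes had 2 of 5 tested members lower at 7 days and 0 higher. Adamtsl1, also called punctin, had 5.66, 5.91 and 6.21 at 7 days and 5.65, 6.62 and 6.87 at 3 days (difference -0.54 ± 0.12 SE or 1.45-fold, adjusted p = 0.00689 by limma). Only the WT male arrays at 3 days (5.65 and 6.01) reached into the range of the 7-day arrays. Adamtsl3 had 5.25, 6.72 and 6.97 at 7 days and 5.64, 7.44 and 7.62 at 3 days, and was lower at 7 days in 8 of 8 matched comparisons (difference -0.63 ± 0.18 SE or 1.55-fold, adjusted p = 0.0254 by limma). Outside the WT male culture its 7-day arrays (6.44 to 6.97) lay below its 3-day arrays (7.16 to 7.62). Its call was lost on leaving out any of 8 arrays. At 3 days these were either WT female array, either Twist1+/- male array or the Twist1+/- female thyroxine array. At 7 days they were either Twist1+/- female array or the WT male control array. With culture as a fixed block the Adamtsl3 difference was -0.63 ± 0.08 SE (adjusted p = 0.000154 by limma). Adamtsl2, Adamtsl4 and Adamtsl5, of which the second is known from fibrillin microfibrils, differed by -0.08, -0.15 and -0.11 and were not called.

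Among the inhibitors Timp1, a secreted inhibitor of most MMPs, had 10.87, 11.20 and 11.48 at 7 days and 11.45, 11.56 and 11.88 at 3 days. It was lower at 7 days in 8 of 8 matched comparisons, and the days overlapped only through the WT male control array at 7 days (11.48). The difference was -0.42 ± 0.09 SE or 1.34-fold (adjusted p = 0.00528 by limma). Timp2, which also takes part in activating Mmp2 with Mmp14, had 11.82, 12.02 and 12.20 at 7 days and 12.13, 12.21 and 12.39 at 3 days. Its values were lower at 7 days in 8 of 8 matched comparisons, and only the WT male thyroxine array at 7 days (12.20) reached into the 3-day range. The difference was small, at -0.22 ± 0.06 SE or 1.17-fold (adjusted p = 0.0269 by limma). That call was lost on leaving out any of 9 arrays. These were every female array except the Twist1+/- thyroxine array at 7 days, and either Twist1+/- male array at 7 days. With culture as a fixed block the Timp2 difference was -0.22 ± 0.05 SE (adjusted p = 0.00924 by limma). Timp3, which is held in the matrix and also inhibits ADAMTS proteases, differed by -0.03 ± 0.10 SE, with 0.09, 0.16 and 0.19 in the Twist1+/- female, Twist1+/- male and WT female cultures and -0.57 in the WT male culture.

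**Figure D4:**
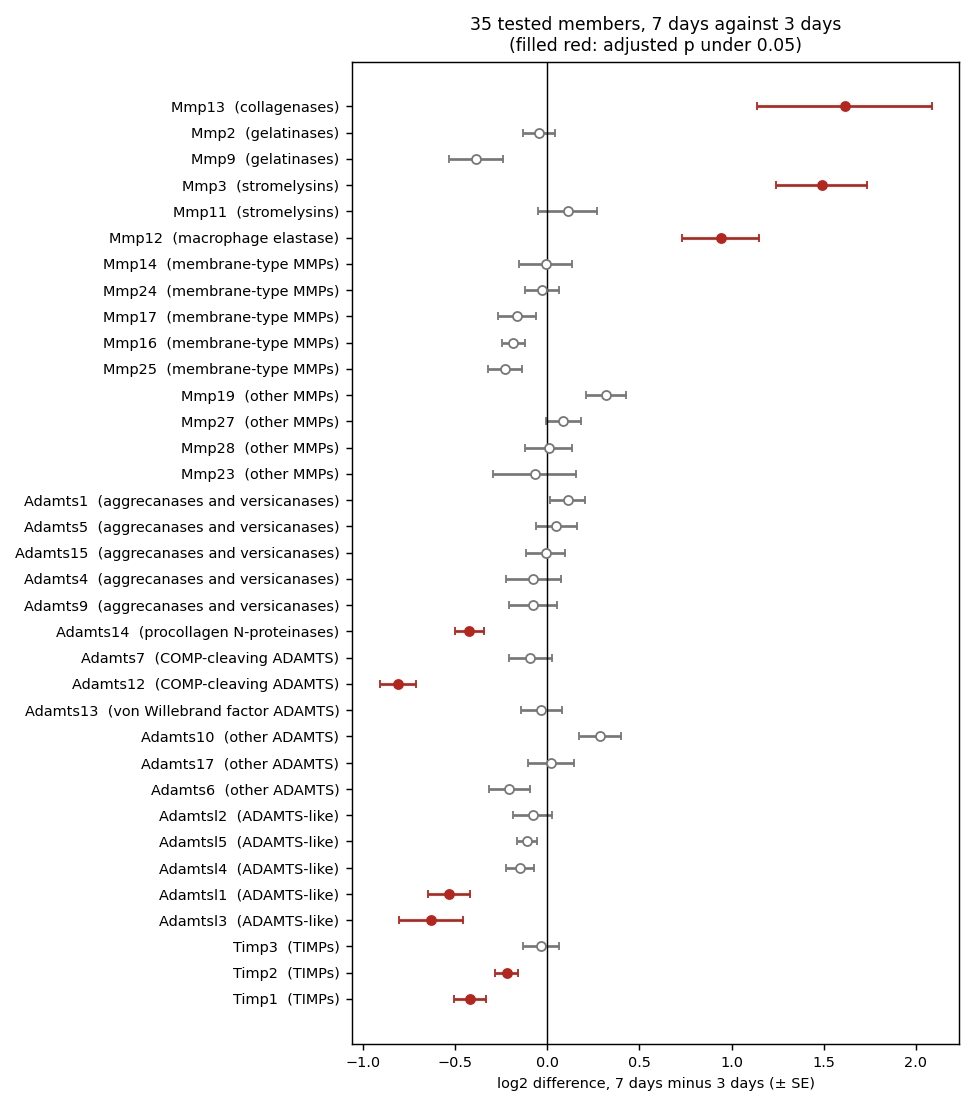
Log2 difference of 7 minus 3 days (± SE, limma group fit over 16 arrays) for the 35 tested members, ordered by role. Filled points passed the test, with 3 to the right of 0 (Mmp13, Mmp3, Mmp12) and 6 to the left; the membrane-type MMPs and the aggrecanases and versicanases have none.

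Partners of the proteases were read from lists, whose counts stand against the 18.5% of all genes called for day, with 9.84% higher and 8.69% lower. In the plasminogen system, whose protease plasmin can activate MMP precursors, 0 of 5 tested genes passed the test of day. Among activators and inhibitors of MMPs 1 of 15 passed, Thbs1, an adhesive matrix glycoprotein, which was lower at 7 days (-0.43 ± 0.08 SE, adjusted p = 0.00229 by limma). Among the substrates 2 of 11 were lower, the basement membrane collagen Col4a1 (-0.97 ± 0.17 SE) and the cartilage collagen Col2a1 (-0.71 ± 0.12 SE). Of 6 AP-1 subunits 2 were higher, Jun by 0.22 ± 0.06 SE (adjusted p = 0.0304 by limma) and Fosb by 0.32 ± 0.10 SE (adjusted p = 0.0498), whereas Fos differed by -0.41 ± 0.14 SE (adjusted p = 0.0625). All 4 smooth muscle markers were lower at 7 days (differences of -1.12 to -0.35), and 0 of 10 mesenchyme markers passed the test. The part of either list in the member results was not tested.

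Within Twist1+/- cells 5 of 35 members passed the test of 7 against 3 days (14.3%), against 14.6% of all genes, of which 9.24% were higher and 5.4% lower. They were Mmp3 (1.97 ± 0.35 SE, adjusted p = 0.0031) and Mmp12 (1.26 ± 0.30 SE, adjusted p = 0.0137), which were higher, and Adamts12 (-0.89, adjusted p = 0.0016), Adamts14 (-0.69, adjusted p = 0.00192) and Adamtsl1 (-0.66, adjusted p = 0.0184), which were lower, all by limma. Mmp13 differed by 2.00 ± 0.67 SE there and was not called (adjusted p = 0.0658 by limma). Within WT cells 0 of 35 members passed, against 0.111% of all genes, and 6 members had an unadjusted p under 0.05. The 5 with the smallest p were Adamts12 at -0.74 (adjusted p = 0.0667), Timp1 at -0.50 (adjusted p = 0.0913), Mmp3 at 1.01 (adjusted p = 0.175), Mmp16 at -0.25 (adjusted p = 0.199) and Adamtsl1 at -0.42 (adjusted p = 0.231), all by limma. Mmp13 differed by 1.23 ± 0.67 SE and Mmp12 by 0.62 ± 0.30 SE in WT cells. With culture as a fixed block 5 members were called in WT cells, against 3.81% of all genes. These were Mmp13 (adjusted p = 0.0058) and Mmp3 (0.0394), which were higher at 7 days, and Timp1 (0.00862), Adamts12 (0.0156) and Adamtsl3 (0.0313), which were lower, by limma. In Twist1+/- cells that fit called 11, against 20% of all genes, and added Mmp13, Mmp9, Mmp19, Adamtsl3, Timp1 and Timp2.

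The test of the difference between the genotypes' day effects found 0 of 35 members and 0% of all genes, with 1174 genes and 1 member at an unadjusted p under 0.05. That member was Adamts14, whose day effect in Twist1+/- cells minus that in WT cells was -0.54 ± 0.16 SE (adjusted p = 0.559 by limma). By culture its day effect was -0.62 and -0.77 in Twist1+/- female and male cells and -0.33 and 0.01 in WT female and male cells. The difference of effects was -0.38 for Mmp24, 0.96 for Mmp3, -0.43 for Adamts7 and 0.32 for Timp3, with adjusted p of 0.592 to 0.652 by limma. The day effects of the genotypes were therefore not shown to differ for any member, in a comparison that recovered 1% of changes of 0.5 and 49% of changes of 1 on simulated data. Without the WT male culture the WT effect rested on the female culture alone, so no spread between WT cultures could enter its error. Only differences are therefore given. The widest in WT female cells were 1.59 for Mmp13, 1.45 for Mmp3, -0.97 for Adamts12, 0.86 for Mmp12 and -0.71 for Adamtsl1. In Twist1+/- cells 11 members were called without the WT male culture, against 22.4% of all genes.

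Between the genotypes 0 of 35 members passed, against 0% of all genes, with 619 genes and 7 members at an unadjusted p under 0.05. Mmp2 had 11.29, 11.44 and 11.65 in Twist1+/- arrays and 10.60, 11.02 and 11.46 in WT arrays (difference 0.41 ± 0.13 SE). Adamts5 had 9.10, 9.41 and 9.59 in Twist1+/- arrays and 8.29, 8.92 and 9.35 in WT arrays (0.49 ± 0.16 SE), and Timp3 had 10.29, 10.75 and 10.98 in Twist1+/- arrays and 9.5, 10.34 and 10.73 in WT arrays (0.43 ± 0.14 SE). Adamtsl3 and Adamtsl4 differed by 0.64 ± 0.25 and 0.28 ± 0.11 SE, and the adjusted p of all 5 was 0.937 by limma. The groups overlapped for each of the 5. Signs were positive for 27 of 35 members, with a median of 0.14 over the members and 0.017 over all genes. Without the WT male culture, in which many members were low, 16 of 35 signs were positive. That difference rested on the female cultures alone. At 3 days and at 7 days taken alone 0 members were called too, with 0% and 0% of all genes at those 2 times and 4 members each at an unadjusted p under 0.05. The 5 with the smallest p at 7 days were Timp3 (0.59), Adamts5 (0.64), Adamts14 (-0.39), Mmp2 (0.34) and Mmp24 (-0.34), and at 3 days Mmp2 (0.48), Adamtsl4 (0.37), Adamtsl3 (0.76), Adamtsl1 (0.48) and Adamts4 (0.47).

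On all 4 WT male arrays 11 of the 35 tested members (31.4%) lay below every one of the other 12 arrays, against 5.29% of all genes tested, and 0 lay above, against 2.26%. These were Mmp2, Mmp11, Mmp14, Mmp19, Mmp23, Adamts1, Adamts4, Adamts5, Adamts9, Adamtsl3 and Timp3. Mmp2 had 10.60 to 10.76 on the WT male arrays and 11.28 to 11.65 on the others. Mmp14 had 9.85 to 10.21 against 10.68 to 11.07, and Mmp23 had 5.75 to 6.46 against 7.09 to 7.84. Mmp12, the macrophage elastase, had 7.04 to 7.60 on the WT male arrays, inside the range of 5.71 to 8.14 on the others, and Timp1 (11.40 to 11.88 against 10.87 to 11.61) and Timp2 (12.05 to 12.24 against 11.82 to 12.39) overlapped too. The comparison is a description of 1 culture, in which genotype, sex and culture cannot be told apart, and the part of the lower mesenchyme markers was not tested.

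Without that culture the genotype fit, which kept its term for sex, set the Twist1+/- female culture against the WT female culture. The Twist1+/- male arrays set that term and did not enter the difference. With 1 culture on each side, the spread between cultures of a genotype could not enter the error, so only differences are given. The 5 widest were Mmp13 (-1.88), Mmp12 (0.81), Mmp3 (-0.65), Mmp9 (-0.59) and Mmp23 (-0.50). Mmp13 had 5.21 to 7.74 on the Twist1+/- female arrays, 6.54 to 8.44 on the Twist1+/- male arrays and 7.26 to 9.04 on the WT female arrays. Mmp9 had 4.18 to 4.7, 5.02 to 5.67 and 4.9 to 5.47 in the same order. With all cultures the Mmp13 difference was 0.37 ± 0.67 SE (adjusted p = 0.956 by limma). Without the WT male culture the difference was 0.07 for Mmp2, 0.24 for Adamts5, 0.30 for Timp3 and 0.23 for Adamtsl4, and for Adamtsl3 its sign turned, to -0.13. The median over the members was then -0.04.

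Thyroxine was tested within the 8 pairs of a thyroxine and a control array of the same culture and day. No member passed, 0 of 35 against 0.0966% of all genes, and 825 genes and 5 members had an unadjusted p under 0.05. Those 5 were Adamts12, Mmp12, Adamts10, Mmp13 and Adamts6. Adamts12 was lower with thyroxine in 7 of 8 pairs (-0.28 ± 0.07 SE, adjusted p = 0.385 by limma). At 7 days its pair differences were -0.57 in Twist1+/- female, -0.54 in Twist1+/- male, 0.09 in WT female and -0.01 in WT male cells, and at 3 days -0.13, -0.64, -0.04 and -0.42 in the same order. Mmp12 was higher with thyroxine in 6 of 8 pairs (0.27 ± 0.09 SE, adjusted p = 0.689 by limma), with pair differences of -0.23 to 0.95. Adamts10 differed by 0.26 ± 0.10 SE, Mmp13 by -0.24 ± 0.09 SE and Adamts6 by -0.17 ± 0.08 SE, with adjusted p of 0.764, 0.765 and 0.807 by limma.

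**Figure D5:**
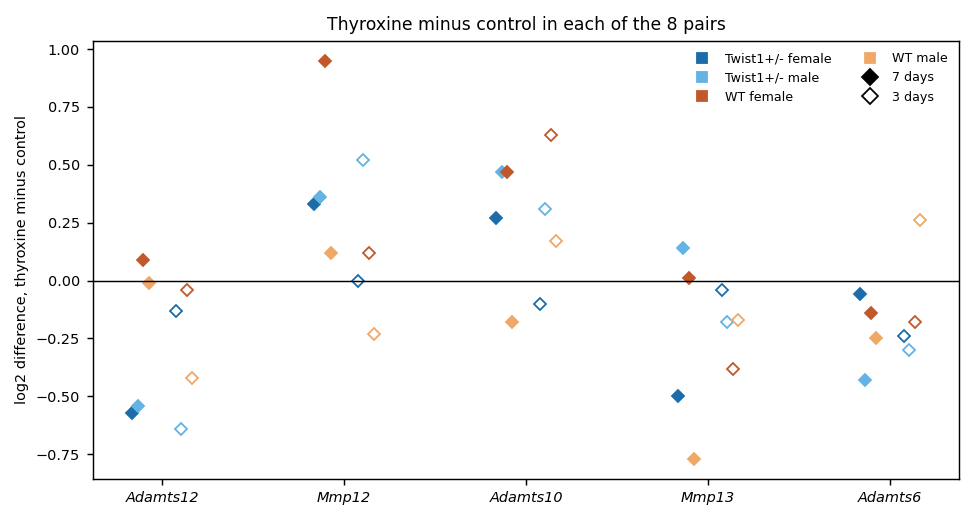
Log2 difference of thyroxine minus control in each of 8 pairs (colour: culture; filled: 7 days, open: 3 days) for the 5 members with the smallest p. Points fall on both sides of 0 for every gene; Adamts12 runs from -0.64 to 0.09 and Mmp12 from -0.23 to 0.95.

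In Twist1+/- cells 0 members passed for thyroxine, against 0.201% of all genes, and Adamts12 was lower in 4 of 4 pairs (-0.47 ± 0.10 SE, adjusted p = 0.11 by limma). Next by p came Mmp12 (0.30), Adamts6 (-0.26), Mmp27 (-0.31) and Mmp16 (-0.16). In WT cells 0 members passed, against 0.0149% of all genes, and Mmp13 had the smallest p (-0.33 ± 0.13 SE, adjusted p = 0.841 by limma), before Adamts7 (0.26), Adamts10 (0.27), Mmp12 (0.24) and Mmp19 (-0.16). The test of the difference between the genotypes' thyroxine effects found 0 members, against 0.0595% of all genes, with Adamts12 at -0.38 ± 0.14 SE (adjusted p = 0.453 by limma), followed by Mmp2 (-0.24), Adamts9 (-0.32), Adamts7 (-0.34) and Mmp19 (0.23). At 7 days 0 members passed, against 0.156% of all genes, with Mmp12 higher in 4 of 4 pairs (0.44 ± 0.13 SE, adjusted p = 0.305 by limma). Behind it were Adamts12 (-0.26), Mmp27 (-0.34), Mmp13 (-0.28) and Adamts6 (-0.22). At 3 days 0 passed, against 0%, with Adamts12 lower in 4 of 4 pairs (-0.31 ± 0.10 SE, adjusted p = 0.999 by limma), and Adamts10 (0.25), Adamtsl1 (-0.19), Adamtsl3 (-0.15) and Mmp9 (-0.19) after it. The difference between the thyroxine effects of the days gave 0 members, against 0.00743% of all genes, with Mmp12 (0.34), Adamtsl1 (0.25), Adamts1 (0.22), Mmp16 (-0.18) and Mmp27 (-0.26) first by p. For the inhibitors the thyroxine pair differences were small, from -0.10 to 0.06 for Timp1, -0.10 to 0.15 for Timp2 and -0.21 to 0.24 for Timp3. In the partner and marker lists 0 genes passed for genotype and 0 for thyroxine.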

How the data were processed

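RNA of 16 samples was measured on Affymetrix arrays. The authors deposited 1 log2 value for each probe set and array. Per the submitters' processing notes, these came from RMA in Affymetrix Expression Console; their versions, the genome build and the annotation are not stated in the sources used here. RMA sets all arrays to 1 distribution, which hides any change common to most genes. Array medians were 3.73 to 3.86. Of 41345 probe sets, 23521 had 1 gene symbol in the platform annotation, 1814 several and 16010 none. The brightest single-symbol probe set stood for a gene. The test took in the 13453 genes whose mean reached 3.905, percentile 40 of the means of named probe sets. All 49 member symbols matched RefSeq.

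limma 3.58.1 in R 4.3.3 (lmFit, eBayes with an intensity trend, two-sided, Benjamini-Hochberg at 0.05) was fitted to all genes. The group fit held 8 group means and sex, with culture as a random block (statmod 1.5.0, within-culture correlation 0.202). The thyroxine fit had each thyroxine and control pair as a fixed block, since the labels' protocols put both media of a sample on a plate. On simulated data the group fit recovered 65% of changes of 0.5 and 96% of changes of 1 for day, and 1% and 49% for the difference of day effects between genotypes. For genotype it recovered 52% and 96%, and 36 of 184 calls were false. The simulation gave every gene the same share of spread from culture and changed 100 genes by each amount. Genes in which culture makes up more of the spread, such as Mmp13, were not simulated, so the rates need not hold for them.

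Members called were all named, or the 5 with the smallest p where fewer than 5 passed, plus 20 symbols common in mesenchyme, bone or macrophages. Members and lists were chosen with earlier results of these data known. Promoter windows come from RefSeq. Alternatives were the variance model, blocks, filter, probe sets, the WT male culture, the Twist1+/- control arrays at 7 days and each array left out.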

Additional observations from a re-analysis of the deposited data

Results flagged for a closer look

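Among 45 sets of 8 values looked at (15 members, 3 sets each), 1 held a sample far from the others, and chance gives about 1 in 20. At 3 days Adamts14 was lowest in WT female cells with thyroxine, at 5.69, while the next array was at 5.99 and the highest at 6.24. That gap took up 0.545 of the range of the 8 arrays, above the critical share of 0.526. Adamts14 kept its call for day without this array.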

How the results depend on the processing

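For 7 against 3 days 9 members were called, against 18.5% of all genes. The count was 6 with no culture block and with no filter, 10 with a stricter filter, and 9 without the intensity trend and with all probe sets averaged. Changing the filter also changed how many members were tested. The count was 8 without the Twist1+/- control arrays at 7 days. It was 12 with culture as a fixed block, against 23.6% of all genes, and 12 without the WT male culture, against 26.1%. Shares of all genes are not given for the other settings. Leaving out each array gave 6 to 10. Adamts12, Adamts14, Adamtsl1, Timp1 and Mmp12 kept direction and call in all of these, and so did Mmp3 wherever it was tested (the stricter filter removed it). Mmp13 and Timp2 lost their calls with no block, with no filter and without the Twist1+/- control arrays at 7 days, and Adamtsl3 with no block and with no filter. In Twist1+/- cells the count was 5, where 14.6% of all genes were called. It was 11 with the culture (replicate) block fixed, where 20% were, and 11 without the WT male culture, where 22.4% were. On leaving out arrays it was 3 to 6. In WT cells the count was 0, where 0.111% of all genes were called, and 5 with the fixed replicate block, where 3.81% were. It was 1 with the stricter filter and 0 to 2 on leaving out arrays. Without the WT male culture the WT day effect rested on 1 culture, so no count is given for it. For genotype the count was 0, and 0 on leaving out each array. Without the WT male culture only 1 culture of each genotype entered the difference, so no count is given. Adamtsl3 turned to -0.133 there. The difference of day effects and the thyroxine comparison gave 0 members under every alternative run, the thyroxine fit with no replicate block included. The causes were not tested. RMA compresses differences close to the background, which limits Mmp3 at 3 days and the members near the filter.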
